A study of Rattus norvegicus with 38 samples.

Results

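Of the 3417 differentially methylated regions (DMRs) in the deposited data, 313 were single CpG positions with low methylation in newborn rat pups. They were chosen by 2 values: a region that spans a single CpG, which held for 2510 DMRs, and a mean methylation level below 25% over the 19 samples taken on postnatal day 2 (P2). Their P2 levels, and each comparison that contains P2 samples, are therefore a description, and the fitted values printed for those comparisons support nothing by themselves. The other single-CpG DMRs fell into P2 ranges of 25 to 45% (694), 45 to 60% (586), 60 to 75% (589) and 75% or more (328), and 907 DMRs held several CpGs.

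DNA methylation was measured by reduced representation bisulfite sequencing (RRBS), which reads bisulfite-converted fragments cut at CCGG sites, in buccal swabs of 19 Sprague-Dawley rat pups. Swabs were taken from every pup at both P2 and P10, 38 samples in all. Control pups were reared in standard bedded cages, and LBN pups were reared from P2 to P9 in a limited bedding and nesting cage, with a mesh platform, sparse bedding and part of a paper towel, a model of early-life adversity. There were 6 controls and 5 LBNs in cohort 1, and 4 of each in cohort 2. The cohorts are described as differing in their dates only. No genotype or drug separated the groups. Pups of several litters were mixed and assigned to dams on P2, after the P2 swab. The labels name neither the sex nor the dam of a pup, so pups of a group may share a dam and the p values measure the spread between pups only. A buccal swab holds epithelial and white blood cells in proportions that were not measured, so a change in a cell type's share and a change within a cell type cannot be told apart. Read counts do not accompany the percentages. Depth is therefore unknown, and single values carry no interval. Percentages were present for every DMR and sample, from 0% to 100%, the mean over all DMRs ranged from 39.4% to 55.1% between samples, and at most 20 DMRs had the same value in any 2 samples.

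In mammalian genomes most CpGs are methylated, whereas CpGs in dense clusters (CpG islands) at promoters and in the first exons of developmental genes are usually not. DNA methyltransferases add methyl groups to cytosine and TET enzymes oxidise them for removal. Genes for homeobox and other lineage factors often lie in unmethylated domains bound by Polycomb proteins in cells that do not express them, and CpGs there can gain methylation as tissues mature.

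The study's gene annotation gave an entry for 154 of the 313 positions (49.2%), against 17.4% of all DMRs and 22.5%, 15.4%, 8.83% and 1.83% in the ranges of rising P2 level. That annotation covers DMRs the study picked by their weights in an analysis of these same samples, so neither the entry nor a gene list built on it is independent of the data. Of the 154, 51 lay in introns, 29 in exons, 10 at a promoter or transcription start (promoter-TSS), 6 at a transcription end (TTS) and 32 between genes, and 26 had no gene within the study's distance. Exons made up 18.8% of the annotated positions, against 12.2% of all annotated single-CpG DMRs, and promoters 6.49% against 5.46%. In the range of 25 to 45% at P2 the shares were 8.97% for exons and 7.05% for promoters. Among annotated DMRs of several CpGs they were 27.2% and 2.21%. The 128 positions with a gene name fell in 120 genes, and 7 genes held more than 1 position. Chromosomes 3, 5 and 10 held 29 positions each, chromosome X held 3 and the mitochondrial genome 1, which stood at 2.79% ± 0.520 at P2 and 2.57% ± 0.494 at P10 (SD, n = 19). All positions are given on rn6 as the deposited files write them.

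Of the 10 genes with a promoter position, RefSeq promoter sequences on build GRCr8 were matched for 6, and those of 4 are shown because their positions span the directions of change described below. They cover the 250 bases before the transcription start, with each CpG in capitals. Nrp1 encodes neuropilin-1, a co-receptor for semaphorins and vascular endothelial growth factor, and its promoter lies at chr19:73256307-73256556 on the plus strand. Fblim1 encodes a filamin-binding protein of cell adhesions, and its promoter lies at chr5:159196817-159197066 on the minus strand. Cpeb1 encodes a protein that binds polyadenylation elements of mRNAs, and its promoter lies at chr1:144816264-144816513 on the minus strand. Slc44a2 encodes a choline transporter-like protein, and its promoter lies at chr8:28164122-28164371 on the plus strand.
Nrp1: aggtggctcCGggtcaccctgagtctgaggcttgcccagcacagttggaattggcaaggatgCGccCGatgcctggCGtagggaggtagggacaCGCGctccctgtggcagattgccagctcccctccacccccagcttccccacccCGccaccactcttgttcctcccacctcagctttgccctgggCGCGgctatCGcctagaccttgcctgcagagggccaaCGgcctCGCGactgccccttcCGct
Fblim1: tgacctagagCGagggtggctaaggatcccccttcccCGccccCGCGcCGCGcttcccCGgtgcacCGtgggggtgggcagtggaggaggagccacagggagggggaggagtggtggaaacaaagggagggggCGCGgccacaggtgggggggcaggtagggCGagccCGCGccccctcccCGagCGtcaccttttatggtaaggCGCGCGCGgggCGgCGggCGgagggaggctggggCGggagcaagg
Cpeb1: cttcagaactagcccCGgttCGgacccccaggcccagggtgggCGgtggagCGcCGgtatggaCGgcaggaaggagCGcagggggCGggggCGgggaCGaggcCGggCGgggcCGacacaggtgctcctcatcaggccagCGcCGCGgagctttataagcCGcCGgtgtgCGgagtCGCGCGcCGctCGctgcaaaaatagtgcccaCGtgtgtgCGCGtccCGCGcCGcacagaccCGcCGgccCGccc
Slc44a2: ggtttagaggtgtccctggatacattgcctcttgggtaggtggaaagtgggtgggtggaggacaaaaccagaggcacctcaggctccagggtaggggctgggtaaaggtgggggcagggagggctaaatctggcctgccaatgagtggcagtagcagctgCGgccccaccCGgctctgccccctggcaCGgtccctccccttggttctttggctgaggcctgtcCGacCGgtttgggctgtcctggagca

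These stretches held 14 CpGs for Nrp1, 23 for Fblim1, 33 for Cpeb1 and 5 for Slc44a2, and the median over all 33469 promoters of that length was 5. The letters CCGG, which read the same on both strands and hold a CpG, occurred 1 time for Nrp1, 1 time for Fblim1, 5 times for Cpeb1 and 2 times for Slc44a2. At least 1 CCGG was found in 46.2% of all promoters. The sequences and the measured positions are on different builds, so the place of the measured CpG relative to these bases was not determined.

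The median level of the 313 positions was 17.9% at P2 and 18.2% at P10. The level at P10 was higher on average at 207 positions (66.1%) and lower at 106, with a median change of 2.83 percentage points (quartiles −2.26 and 7.06) and a range from −14.5 to 18.7. Over all DMRs 43.0% were higher at P10 and the median change was −1.85 percentage points. The share that was higher was 51.4% in the range of 25 to 45% at P2, then 36.9%, 36.7% and 33.8%. At P10, 85 positions had moved to 25% or more, 177 stood at 10 to 25% and 51 below 10%, and the highest mean was 41.4%. Values of 0% occurred 70 times, at 40 positions, and 100% never occurred.

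**Figure D1:**
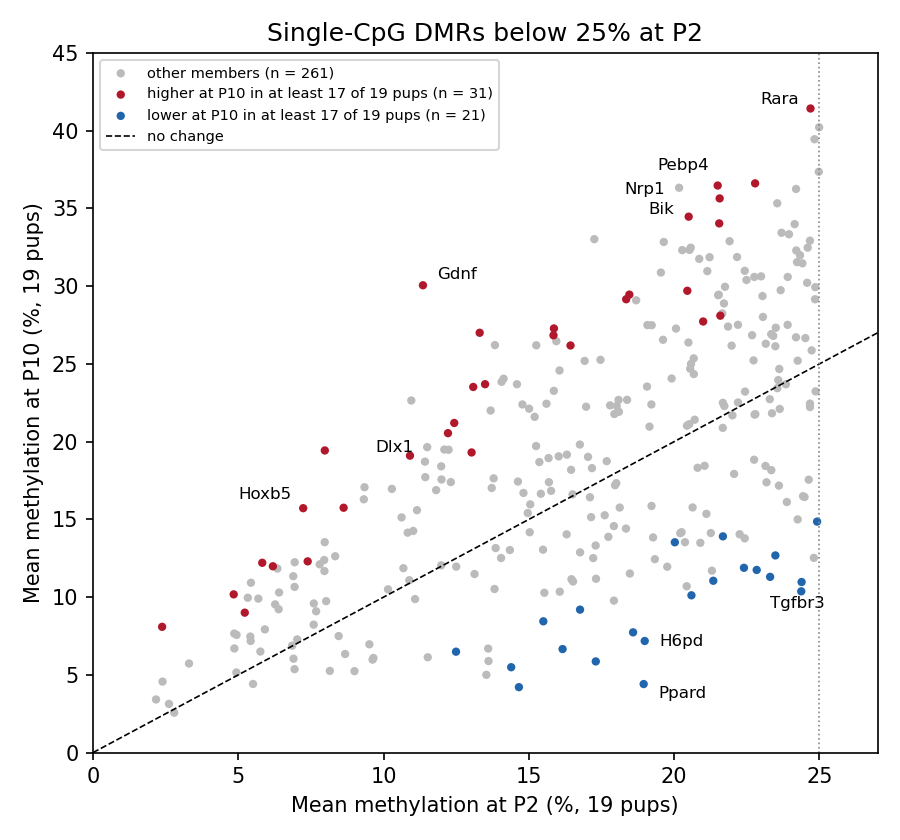
Mean methylation (%) of each of the 313 single-CpG DMRs at P2 (x axis) and P10 (y axis) over 19 pups, with the dashed line for no change and the dotted line at the 25% limit. Red points were higher at P10 in at least 17 of 19 pups (31 positions) and blue points lower in at least 17 (21 positions); Gdnf lies highest above the line and Ppard lowest below it.

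Within the group, the lowest positions were most often higher at P10. Of 11 positions at 0 to 5% at P2, 10 were higher (90.9%), and of 44 at 5 to 10% 34 were higher (77.3%). The share was 73.1% at 10 to 15%, 58.8% at 15 to 20% and 61.9% at 20 to 25%. A low P2 mean is what chose the positions, and a level near 0% has little room to fall, so these shares are given as a description. The median change at 0 to 5% was 2.17 percentage points. The lowest were chr17:8740049 (2.17% at P2), chr10:106242332 (2.38%) and chr1:150797206 (2.39%), which stood at 3.42%, 8.09% and 4.57% at P10. Just inside the limit lay chr8:48839554 (24.92%), a Gdnf intron position (24.98%) and a Fzd7 exon position (24.99%). Just outside lay a Zmat5 intron position (25.04%), chr5:136222312 (25.07%) and chr11:57207654 (25.12%). The Gdnf, Fzd7 and Zmat5 positions stood at 37.4%, 40.2% and 36.6% at P10, and chr8:48839554 at 14.9%.

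By limma with the pup as a block, 159 positions passed an adjusted p of 0.05 between P2 and P10, 105 of them higher (33.5%) and 54 lower (17.3%) at P10, and over all DMRs 13.7% were called higher and 30% lower (43.7% in all). The limit on P2 enters this contrast, and the authors had chosen all DMRs for a P2 to P10 difference in these pups, so nothing is read from these counts. A choice by one cohort and a change in the other do not share samples. With the limit applied to the P2 samples of cohort 1, 271 DMRs were chosen, of which 14.4% were called higher and 12.5% lower in cohort 2, where 4.74% and 22.9% of all DMRs were called. With the limit applied in cohort 2, 416 were chosen, of which 18.3% were called higher and 9.13% lower in cohort 1, against 10.3% and 15.5% of all DMRs. The share that was higher on average was 55.7% in cohort 2 (28.9% of all DMRs) and 67.5% in cohort 1 (53.9%). The DMRs themselves had been selected on both cohorts, so this is a description too. This way of choosing was added after the data were seen.

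Among positions lower at P10 in at least 17 pups, the mean change was largest at Ppard, which encodes the fatty acid-activated nuclear receptor PPARδ. Its intron position (chr20:7819196) stood in cohort 1 controls between 18.6% and 28.6% at P2 (median 23.0%) and between 2.04% and 5.17% at P10 (median 4.08%). In cohort 1 LBNs it read 12.8%, 16.4%, 18.7%, 19.4% and 21.0% at P2 and 4.90%, 5.65%, 5.88%, 8.14% and 8.72% at P10. In cohort 2 the controls read 14.1%, 14.4%, 16.1% and 16.4% at P2 and 2.32%, 3.44%, 3.50% and 4.93% at P10, and the LBNs 12.7%, 14.1%, 18.6% and 25.5% and then 2.60%, 2.98%, 3.23% and 4.18%. No P10 sample of either cohort reached the lowest P2 sample, and the mean change was −14.5 ± 5.79 percentage points (SD, n = 19). The H6pd exon position (chr5:166999141), in a gene for an endoplasmic reticulum enzyme that supplies NADPH, went from 19% ± 5.69 to 7.18% ± 3.77 and was lower in 18 pups. The Tgfbr3 intron position (chr14:3620744), in the gene of the TGF-β co-receptor betaglycan, went from 23.3% ± 7.82 to 11.3% ± 11.5 and was lower in 17 pups. Positions chr4:115957693 (24.4% to 10.4%), chr12:9175302 (24.4% to 11%) and chr1:225986776 (17.3% to 5.86%) have no gene name, and the first and the last were lower in all 19 pups.

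The largest mean gain was at an exon position of Gdnf (chr2:56892567), the gene of glial cell line-derived neurotrophic factor. In cohort 1 controls it lay between 5.88% and 22.2% at P2 (median 8.01%) and between 27.9% and 54.2% at P10 (median 36.1%). In cohort 1 LBNs it read 6.67%, 8.70%, 8.93%, 10.3% and 14.3% at P2 and 11.8%, 12.8%, 16.7%, 22.6% and 30.6% at P10. In cohort 2 controls it read 8.33%, 13.9%, 14% and 19.1% and then 26.0%, 27.8%, 36.4% and 54.5%, and in cohort 2 LBNs 7.32%, 9.68%, 10.9% and 18.8% and then 21.5%, 22.5%, 23.4% and 38%. It was higher at P10 in all 19 pups, by 18.7 ± 12.8 percentage points (SD), and was the only member to be so, against 6 positions lower in all 19. Over all DMRs 0.966% were higher and 1.29% lower in every pup. In at least 17 pups, 31 positions were higher and 21 lower, against 4.77% and 8.28% of all DMRs.

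An intron position of Rara (chr10:86880992), the gene of retinoic acid receptor α, went from 24.7% ± 12.1 to 41.4% ± 14.2 (SD, n = 19) and had the highest P10 mean. Cohort 1 stood higher on average at both ages, and the cohorts overlapped. Cohort 1 pups spanned 14.6% to 49.3% at P2 and 34.8% to 76.4% at P10, and cohort 2 pups spanned 8.13% to 23.1% and 21.2% to 42.0%. Intron positions of Pebp4 (chr15:51555267, 21.5% ± 6.58 to 36.5% ± 6.34), a phosphatidylethanolamine-binding protein gene, and of Bik (chr7:124392167, 20.5% ± 5.52 to 34.5% ± 6.88), a gene of the pro-apoptotic BH3-only class, were higher in 18 pups each. The unnamed positions chr9:10990006 (21.6% to 35.6%) and chr3:164333580 (22.8% to 36.6%) were higher in 18 and 17 pups.

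**Figure D2:**
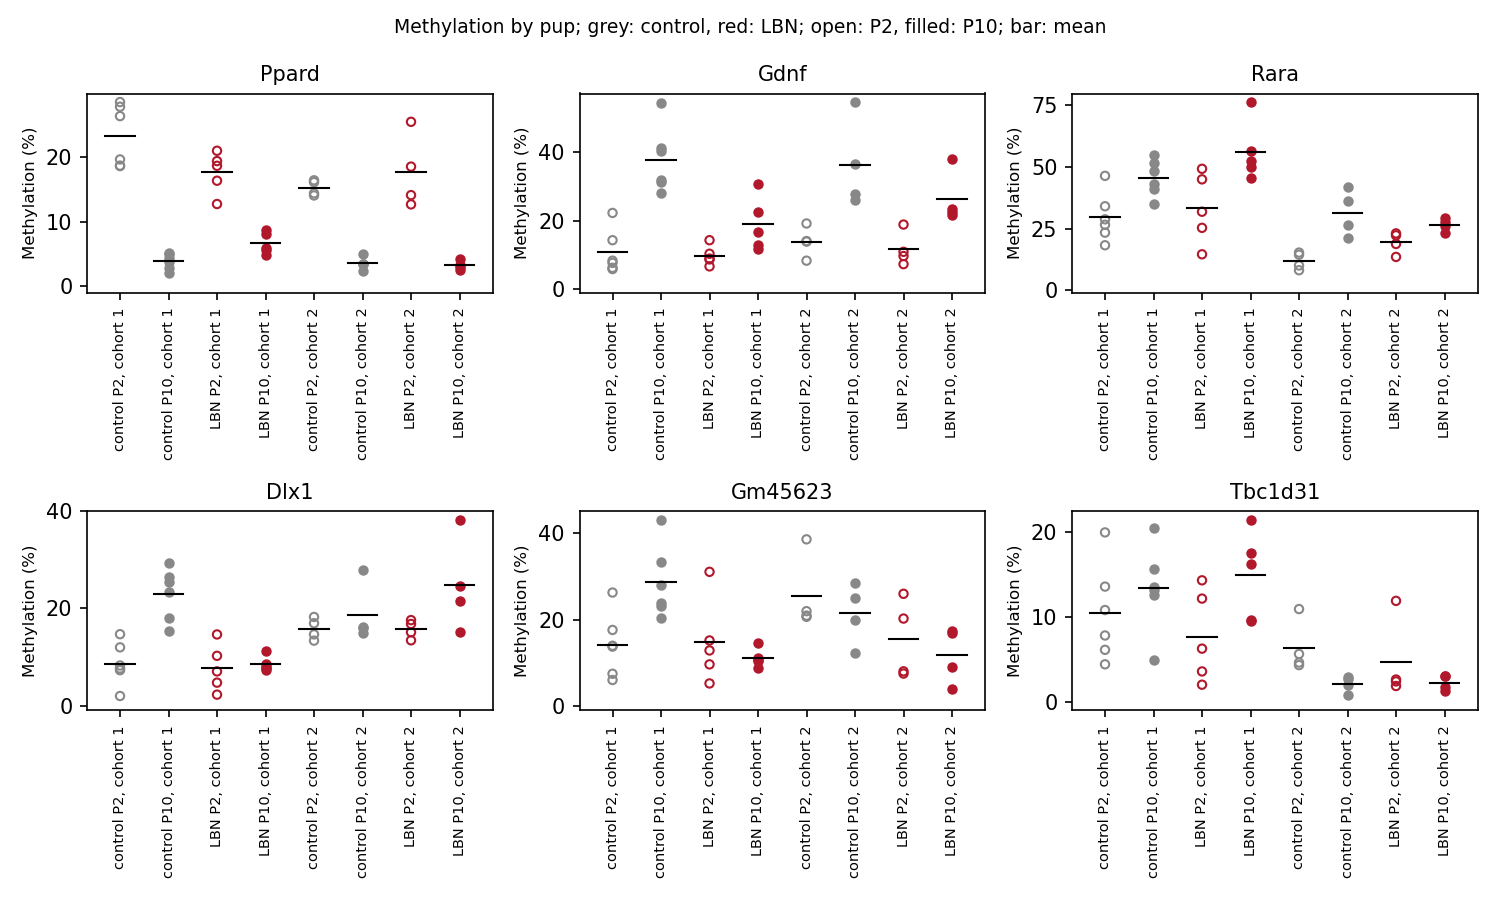
Methylation (%) in every pup at positions of Ppard, Gdnf (exon), Rara, Dlx1, Gm45623 and Tbc1d31, by group, age and cohort, with a bar at each mean. Ppard reaches 8.72% at most at P10. Dlx1 at P10 spans 7.27% to 11.2% in LBNs and 15.5% to 29.4% in controls of cohort 1 and overlaps in cohort 2, and Tbc1d31 at P10 reaches 3.08% at most in cohort 2 and starts at 4.98% in cohort 1.

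Homeobox genes encode DNA-binding factors that pattern the body axis and the head. The list held 65 genes and counts among them Pax9, a paired-box gene without a homeobox. Of the 65 genes 12 had a position below 25% at P2, 13 positions in all. Of these, 11 were higher and 2 lower on average at P10, with a median level of 11.4% at P2 and 15.7% at P10. The exon position of Hoxb5 (chr10:84153551), a gene of trunk patterning, went from 7.23% ± 5.14 to 15.7% ± 5.70 and was higher in 17 of 19 pups. Irx2 (between genes, chr1:33280607) went from 21.8% ± 6.05 to 30% ± 9.40, and Dlx1 (exon, chr3:58167965), a gene of jaw and forebrain development, from 11.4% ± 5.15 to 18.7% ± 8.58. A Meis1 intron position (chr14:103310906), in a gene for a Hox cofactor, went the other way, from 13.6% ± 7.06 to 5.89% ± 3.67. The 2 exon positions of Six2 lie 231 bases apart and went from 10.8% to 14.1% and from 3.30% to 5.73%. Among the other positions of the list, those of Lhx6, Hlx and Pax9 changed by 2.81, 1.72 and 0.201 percentage points. These changes, and those of the positions of the list named before them, were each smaller than the SD of the change between pups. At Hoxb5 the change was 8.49 ± 8.60 percentage points (SD).

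The list of other transcription factors and cofactors held 21 positions of 17 genes, of which 19 were higher and 2 lower at P10. Besides Rara and Ppard, the largest changes were at Fosb (exon, chr1:80216938), an AP-1 subunit gene, from 11% ± 2.96 to 22.6% ± 11, and at Tfap2c (between genes, chr3:170548555), an AP-2 factor gene of the epidermis, from 7.98% ± 4.98 to 19.4% ± 10.8. At Fosb the cohort 2 controls went from 11.1% to 17.1% at P2 to 24.0% to 33.8% at P10, without overlap, and the cohort 1 controls from 8.0% to 13.6% at P2 to 10.9% to 36.4%, with overlap. Both Gata3 positions, in the gene of a factor of T cells and hair follicles, were low at P2 (5.44% and 5.91%) and at P10 (10.9% and 7.93%). The 3 Casz1 positions, in the gene of a zinc finger factor, were at 21.9%, 15.4% and 16.5% at P2 and 27.4%, 18.7% and 18.2% at P10.

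Growth factor, Wnt and guidance genes held 13 positions, 9 higher and 4 lower at P10. Among ligands, both Gdnf positions and both Wnt3 positions (15.6% to 22.4% and 11.5% to 19.6%) were higher, as was an intron position of Fgf4, from 7.39% ± 2.69 to 12.3% ± 2.72, in 18 pups. Among receptors, the Nrp1 promoter position (chr19:61332069) was at 5.88% to 43.8% in cohort 1 and 5.00% to 23.1% in cohort 2 at P2, and at 22.2% to 55.0% and 18.9% to 55.6% at P10. It was higher in 16 of 19 pups, by 16.2 ± 16.4 percentage points (SD). The exon position of the Wnt receptor gene Fzd7 (chr9:66307647) was higher in 16 pups, from 25% ± 10.3 to 40.2% ± 13.1. The 4 lower positions were those of Tgfbr3, of the endothelial gene Egfl7 (20.6% ± 5.78 to 10.1% ± 3.12, lower in 18 pups), of the Wnt inhibitor gene Dact3 (19.3% to 13.8%) and of Sema6b (8.68% to 6.34%).

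**Figure D3:**
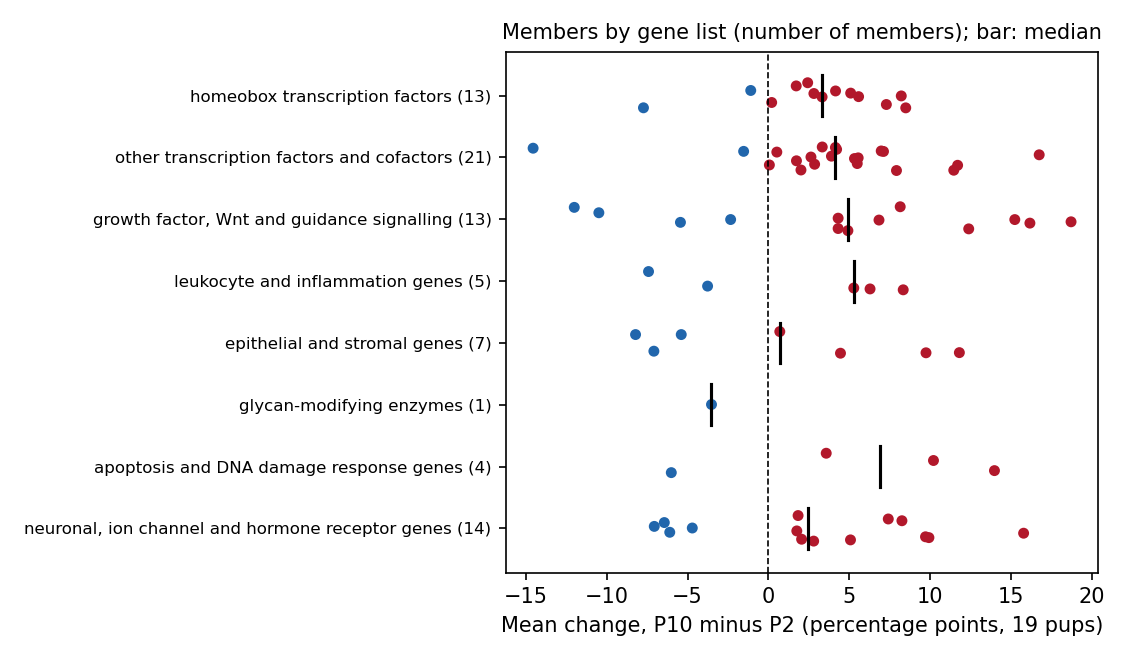
Mean change from P2 to P10 (percentage points, 19 pups) of each member in 8 gene lists, with a bar at the median of each list; red points are above 0 and blue points below. The homeobox list holds 11 points above 0 and 2 below, other transcription factors 19 and 2, and the epithelial list 4 and 3.

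The lists of apoptosis genes and of neuronal, ion channel and hormone receptor genes held positions in both directions. Of 4 apoptosis positions, Bik and Pmaip1 (which encodes Noxa, 13.5% ± 4.71 to 23.7% ± 8.38, higher in 18 pups) were higher, Pdcd6ip (which encodes the ESCRT-associated protein ALIX) was lower (12.5% ± 3.57 to 6.49% ± 5.86, in 17 pups), and Bmf changed by 3.57 ± 15.9 percentage points. Of 14 positions of neuronal, ion channel and hormone receptor genes 10 were higher and 4 lower. They were led by a position near Mog, the gene of a myelin glycoprotein (17.3% ± 9.16 to 33% ± 8.74, higher in 16 pups). Gains at Kcnn4 (9.92 percentage points), Nmnat2 (9.71) and Ppfia3 (8.25) followed. An intron position of the adhesion receptor gene Adgrg1 (15.5% ± 4.26 to 8.44% ± 2.97) was lower in all 19 pups. The one glycan enzyme position, in an intron of the glucosylceramide synthase gene Ugcg, went from 9.65% ± 4.28 to 6.09% ± 3.12.

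Genes of white blood cells and of epithelium bear on what a swab held. Of the 5 leukocyte positions, Irf8 (a myeloid and B cell factor, exon, 12.2% ± 3.79 to 20.5% ± 4.21, higher in 17 pups), Icam1 (11.4% to 17.7%) and Cd37 (17% to 22.2%) were higher, and Nlrp1a (20.9% to 13.5%) and Gpr132 (9.0% to 5.24%) lower. The mean over these 5 positions ranged from 11.3% to 17.2% in cohort 1 LBNs, 11.3% to 15% in cohort 1 controls, 11% to 15.9% in cohort 2 LBNs and 10.9% to 18% in cohort 2 controls at P2. At P10 the ranges were 13.2% to 16.3%, 13.4% to 21.6%, 12.5% to 17.1% and 14.2% to 20.5%. Over all 27 DMRs of the leukocyte list, these 5 included, the group means were lower at P10 than at P2 in all 4 groups. They went from 41.1% to 33.3% in cohort 1 controls, 38.7% to 34.8% in cohort 1 LBNs, 38.8% to 28.1% in cohort 2 controls and 32.7% to 31.5% in cohort 2 LBNs. In cohort 2 at P2 the pups later assigned to LBN cages lay between 30.2% and 35.3% and the others between 36.9% and 41.7%, without overlap. Of the 7 epithelial and stromal positions, an Epcam intron position (6.89% ± 2.95 to 11.3% ± 4.48), the Fblim1 promoter (23.7% ± 9.51 to 33.4% ± 9.22) and an intron position of the matrix gene Tnxb (20.5% to 32.3%) were higher, the Tnxb exon position changed by 0.703 ± 12.5 percentage points, and Arvcf, Liph and the Ehbp1l1 promoter were lower. Their mean ranged from 15.2% to 22.4% over P2 samples and from 15.4% to 25.5% over P10 samples. Over all 23 DMRs of that list the group means were likewise lower at P10, from 35.1% to 31.4% and 36.2% to 33% in cohort 1 controls and LBNs, and from 31% to 21.9% and 28.3% to 21.9% in cohort 2. For all DMRs of the series the median change was −0.800 and 2.71 percentage points in cohort 1 controls and LBNs. It was −4.10 and −5.45 in cohort 2 controls and LBNs. The series median thus rose only in cohort 1 LBNs, where the means of both lists were lower at P10. A median change over the series and a mean level over a list are unlike measures. Levels at these positions are not cell counts, and the part of cell composition in the changes was not tested.

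Of the 10 promoter positions, 7 were higher and 3 lower at P10. The largest loss was at the promoter of Tspo, the gene of a mitochondrial outer membrane protein, from 14.7% to 4.21% and lower in 17 pups. Ehbp1l1 (11.5% to 6.13%) and Slc44a2 (15.5% to 13.1%) were the other two. Besides Nrp1 and Fblim1, Creld1 (6.94% to 12.2%), Cpeb1 (7.96% to 12.4%), Tbx4 (20.6% to 24.7%), Tbc1d31 (7.68% to 9.09%) and Tex40 (10.2% to 10.5%) were higher. Of the exon positions 25 of 29 were higher, with medians of 12.2% and 18.7%, and of the intron positions 29 of 51, with medians of 20.5% and 17.4%.

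Within 1000 bases 7 neighbouring pairs were found, and both positions of each pair changed in the same direction on average. Across the 19 pups the change of the 2 positions was correlated with a Pearson r of 0.286 to 0.902 (median 0.601). No p is given, since both positions of a pair were read in the same libraries and pups share cohorts. The 2 Casz1 exon positions 184 bases apart had the highest r, and the exon and intron positions of Gdnf, 445 bases apart, had the lowest.

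The direction of the change was not equal over the groups. Of the 313 positions 61.7% were higher at P10 in cohort 1 controls, 64.9% in cohort 1 LBNs, 61.3% in cohort 2 controls and 42.2% in cohort 2 LBNs, against 46.5%, 57.0%, 40.4% and 29.6% of all DMRs. The mean over the positions went from 17.9% ± 1.56 to 19.7% ± 1.09 in cohort 1 controls (SD, n = 6) and from 17.6% ± 2.10 to 22.2% ± 1.65 in cohort 1 LBNs (n = 5). In cohort 2 it went from 14.5% ± 0.733 to 16.8% ± 0.950 in controls (n = 4) and from 16.4% ± 0.645 to 15.9% ± 0.910 in LBNs (n = 4). All 5 LBN pups of cohort 1 and all 4 control pups of cohort 2 were higher at P10, 4 of the 6 control pups of cohort 1 were, and 1 of the 4 LBN pups of cohort 2 was. Between the cohorts, 151 positions were higher at P10 in both, 85 lower in both, 58 higher in cohort 1 and lower in cohort 2, and 19 the reverse.

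**Figure D4:**
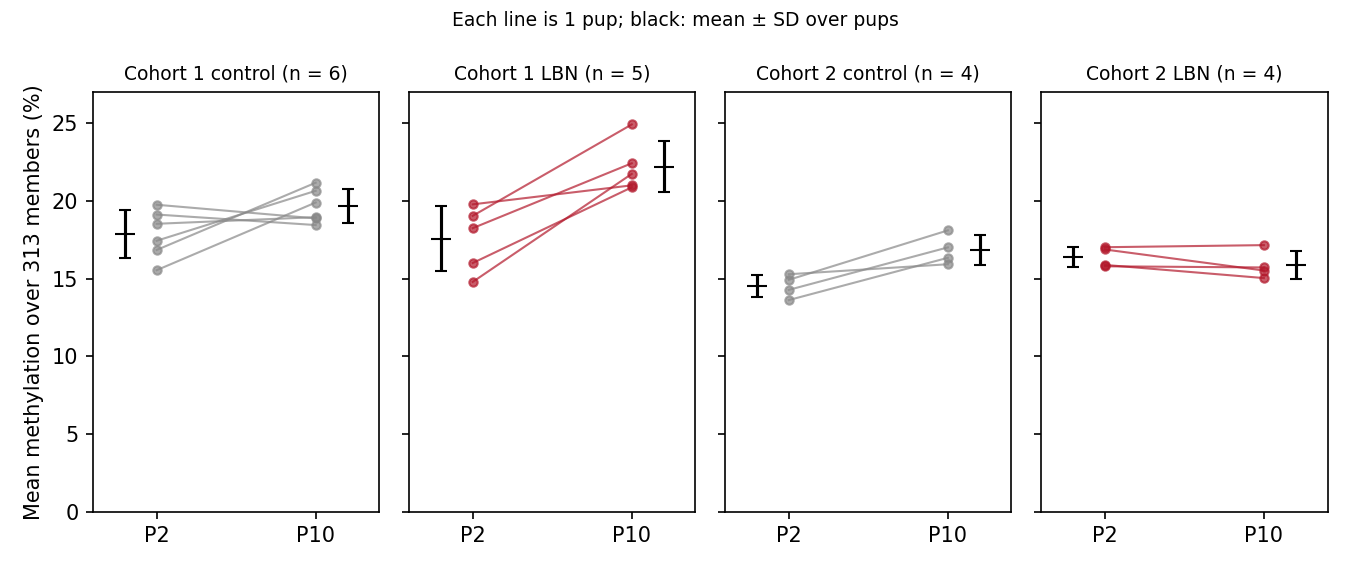
Mean methylation (%) over the 313 positions in each pup at P2 and P10, by cohort and group, with the mean ± SD over pups in black. The lines rise in every cohort 1 LBN pup and every cohort 2 control pup, and 3 of the 4 cohort 2 LBN pups end lower than they began.

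Whether rearing set the groups apart was asked first at P10, whose samples the limit on P2 did not use, although the authors' selection of DMRs did. With cohort as a covariate, limma called 0 of the 313 positions and 0% of all DMRs, and 36 positions (11.5%) had an unadjusted p below 0.05, beside 9.86% of all DMRs. The smallest p belonged to a position at the end of the predicted gene Gm45623 (chr17:8299746), which was lower in LBNs by 1.37 ± 0.297 (SE) on the scale of log2((percent + 1)/(100 − percent + 1)), with an adjusted p of 0.328. In cohort 1 the controls spanned 20.4% to 43.2% (median 26.1%) and the LBNs read 8.77%, 10.5%, 10.7%, 11.1% and 14.5%. In cohort 2 the controls read 12.3%, 20%, 25% and 28.6% and the LBNs 4.0%, 9.09%, 17% and 17.5%. The groups did not overlap in cohort 1 and did in cohort 2. The Gdnf exon position followed, lower in LBNs by 1.08 ± 0.305, then Tgfbr3, higher by 1.56 ± 0.446, the promoter of Creld1, a gene of heart septum development, lower by 1.07 ± 0.327, and AC133613.1, higher by 0.85 ± 0.298, each with an adjusted p of 0.482. These 5 had the same sign in both cohorts, which a choice by the fit over both cohorts favours, so the shared sign is no independent support.

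In cohort 1 alone limma called 36 positions at P10, 23 higher and 13 lower in LBNs (11.5%), beside 12.0% of all DMRs (7.52% higher and 4.45% lower). The share called among the 313 positions was thus near that of the whole series. The count rested on single pups. It was 0 without control pup 3, 6 or 9 or without LBN pup 2, 9 or 12, 13 without control pup 12 and 80 without control pup 4. The smallest p was at the Dlx1 exon position, where control pups spanned 15.5% to 29.4% (median 24.4%) and the LBNs read 7.27%, 7.84%, 8.03%, 8.63% and 11.2%, without overlap. The difference was −1.55 ± 0.325 (SE, log2 ratio scale, adjusted p = 0.0364). At P2 the same pups had overlapped, with controls from 1.98% to 14.7% and LBNs at 2.26%, 4.73%, 7.04%, 10.3% and 14.7%. In cohort 2 at P10 the controls read 14.9%, 15.9%, 16.2% and 28.0% and the LBNs 15.1%, 21.5%, 24.6% and 38.2%, with a difference of 0.48 ± 0.458.

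The unnamed position chr14:17710377 was higher in cohort 1 LBNs, which read 42.6%, 50%, 53.8%, 57.9% and 58.7% against 14.3% to 39.2% in controls (1.69 ± 0.362, adjusted p = 0.0364). Its cohort 2 values were 17.1%, 17.6%, 22% and 35.3% in LBNs and 21.1%, 26.6%, 29.0% and 37.1% in controls. The position chr3:79937427 was higher by 1.60 ± 0.351 and Pdcd6ip by 1.66 ± 0.404, with adjusted p values of 0.0364 and 0.0365. At Pdcd6ip the cohort 1 controls lay between 2.27% and 5.88% and the LBNs read 4.49%, 10.7%, 11.4%, 20.2% and 22.5%, so that 1 LBN pup lay among the controls. Cohort 2 gave −0.36 ± 0.410 there. Dlx1, chr14:17710377, chr3:79937427, Gm45623 and Pdcd6ip each lost the call when any of the 6 pups named above was left out, and Pdcd6ip also on untransformed percentages.

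Among the 13 positions lower in cohort 1 LBNs, those with a gene name included Casz1, Creld1, Gm45623, Dlx1, Tnxb, Gdnf, Pax9, Gata3 and Wnt3. Of the 23 higher ones 7 carry a gene name (AC133613.1, Glipr2, Ell, Bmf, Zfpm1, Pdcd6ip and Tgfbr3), and these names were read off after the values were seen. From the lists, 2 of 13 homeobox, 2 of 21 other transcription factor, 2 of 13 growth factor, 1 of 7 epithelial and 1 of 14 neuronal positions were called lower, where 4.45% of all DMRs were. Of the other transcription factor positions 1 was called higher, of the growth factor positions 1, and of the 4 apoptosis positions 2 (Bmf and Pdcd6ip), where 7.52% of all DMRs were. The lists hold only DMRs that the study had picked by weights, in part weights that set LBNs apart from controls in these pups. Their shares are therefore not comparable with those of all DMRs, and nothing is read from them. In every cohort 1 LBN pup 10 positions lay above and 8 below every control pup at P10, where 2.72% and 2.08% of all DMRs did. Of the 36 called positions, 27 had the same sign at P2 in cohort 1, before rearing (of all DMRs called, 329 of 409), and 11 had the same sign at P10 in cohort 2 (of all DMRs called, 88 of 409).

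In cohort 2 alone limma called 0 positions at P10 and 0% of all DMRs, and 7 positions (2.24%) had an unadjusted p below 0.05, beside 1.32% of all DMRs. Fzd7 was lower in LBNs by 0.98 ± 0.395 (unadjusted p = 0.0284, limma), with LBNs at 23.9%, 25.3%, 29.2% and 35.9% and controls at 37.0%, 40.6%, 44.4% and 54.9%. Of the others named by the smallest p, chr10:15742897 (−0.97), chr12:13837773 (−1.31) and Slc44a2 (−1.0) were lower and chr3:164568897 (1.01) higher. The difference between the cohorts in the LBN effect was tested as an interaction, and limma called 0 positions and 0% of all DMRs, with 70 positions (22.4%) at an unadjusted p below 0.05, beside 23.6% of all DMRs. Dlx1 had an interaction of 2.03 ± 0.512 and an adjusted p of 0.154.

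**Figure D5:**
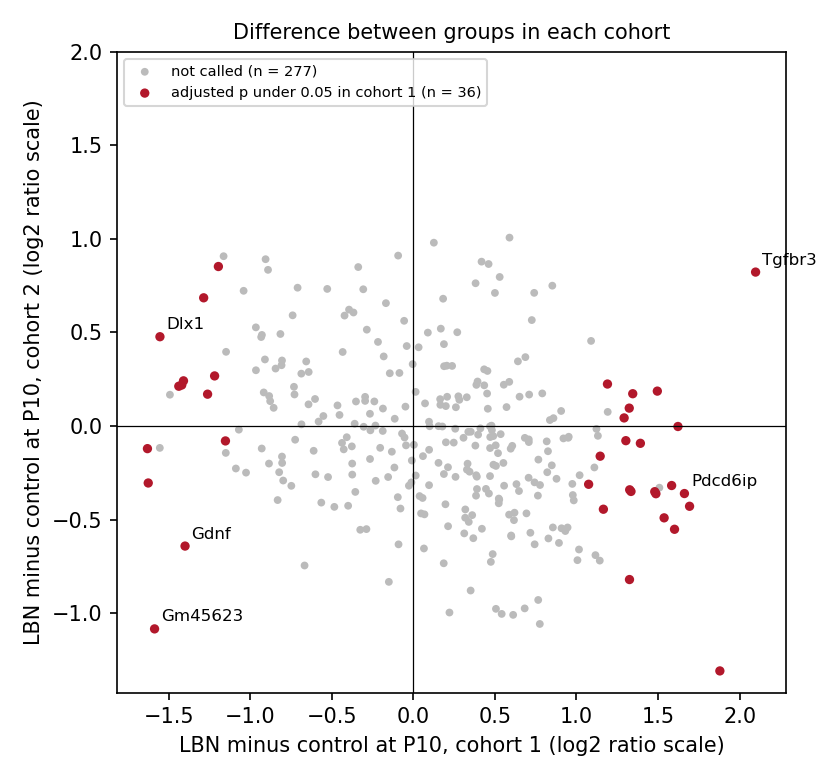
Difference between LBN and control pups at P10 on the log2 ratio scale at each of the 313 positions, in cohort 1 (x axis) and cohort 2 (y axis). The 36 positions called in cohort 1 (red) lie at both ends of the x axis, and 11 of them lie on the same side of 0 in cohort 2.

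The change within a pup is the measure the study calls δ methylation, here log2((P10 + 1)/(P2 + 1)) of the percentages. Limma called 0 positions and 0% of all DMRs for LBNs against controls over both cohorts, in cohort 1 and in cohort 2, with 14, 31 and 99 positions (4.47%, 9.90% and 31.6%) at an unadjusted p below 0.05, beside 3.28%, 5.88% and 23.1% of all DMRs. The P2 values in this measure are those that chose the positions, pooled over the groups. In cohort 2 the count was 15 without control pup 5. The smallest p there were at Fzd7 (−1.74 ± 0.282) and the Slc44a2 promoter (−1.76 ± 0.291), both with an adjusted p of 0.0516. The Slc44a2 controls read 4.19%, 8.05%, 9.09% and 12.5% at P2 and 5.19%, 11.2%, 11.4% and 12.5% at P10, and the LBNs 14.4%, 14.7%, 15.3% and 15.5% and then 2.47%, 4.14%, 5.34% and 7.55%. The LBNs stood above all controls at P2, and at P10 they overlapped the lowest control. These positions were named after their values were seen. Pebp4 had the smallest p over both cohorts, with δ methylation lower in LBNs by 0.65 ± 0.206 (SE, unadjusted p = 0.00517 by limma). In cohort 2 its controls read 10.6%, 12.6%, 13.5% and 18.5% at P2 and 29.6%, 38.7%, 39.7% and 41.7% at P10, and its LBNs 17.9%, 25%, 25.7% and 26.4% and then 24.4%, 25.4%, 29.1% and 31.4%. The LBNs thus stood mostly above the controls at P2 and mostly below them at P10. Plekhg5, chr3:164568897, chr3:30167783 and Pdcd6ip followed, each higher in LBNs, by 0.86 ± 0.281, 1.15 ± 0.377, 0.76 ± 0.269 and 0.95 ± 0.353.

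Before rearing, at P2, limma called 0 positions and 0% of all DMRs over both cohorts and in cohort 1, with 33 and 4 positions (10.5% and 1.28%) at an unadjusted p below 0.05, beside 13.4% and 1.73% of all DMRs. The P2 samples also chose the positions, by a mean over all groups, so the counts and directions here are a description. In cohort 2, 33 positions were called at P2, 30 higher and 3 lower in pups later assigned to LBN (10.5%), beside 14% of all DMRs (4.33% higher and 9.69% lower). The count was 0 without control pup 11 or LBN pup 4, 9 or 11, 5 without control pup 1 and 1 without control pup 5. At Fzd7 the pups later assigned to control cages read 10.2%, 10.6%, 13.8% and 18.4% and those later assigned to LBN cages 26.0%, 28.0%, 30.5% and 33.3%, a difference of 1.42 ± 0.320 (SE). The groups were apart at P2, and apart in the opposite order at P10. Of the 33 positions 28 had the same sign at P2 in cohort 1 (84.8%, against 67.6% for all DMRs called) and 5 the same sign at P10 in cohort 2 (15.2%, against 10.6%). The 36 positions called in cohort 1 at P10 and the 33 called in cohort 2 at P2 had 13 in common, 36.1% of the first and 39.4% of the second, all with the same sign. Over all DMRs 89 were in common, 21.8% of 409 and 18.6% of 479, and all 89 had the same sign. The mean over the 313 positions at P2 lay between 13.6% and 15.3% in cohort 2 pups later assigned to control cages and between 15.8% and 17% in those later assigned to LBN cages.

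Far more positions were called between the cohorts than between the groups. At P10, 131 positions (41.9%) were called between cohort 2 and cohort 1, 27 higher and 104 lower in cohort 2, beside 49.2% of all DMRs (7.11% higher and 42.1% lower). The smallest p was at an intron position of Adk (chr15:3398708), the gene of adenosine kinase. In cohort 1 it lay between 15.7% and 65.8% at P10, with controls from 15.7% to 49.3% and LBNs at 36.6%, 36.6%, 47.2%, 56.6% and 65.8%. In cohort 2 the controls read 0%, 1.04%, 3.10% and 8.53% and the LBNs 1.68%, 2.33%, 2.33% and 2.45%. The cohorts did not overlap, and the difference was −4.30 ± 0.396 (SE, adjusted p = 5.84e-08). At P2 the ranges were 9.72% to 61.2% and 4.17% to 18.5%. The unnamed positions chr7:36525586 (−2.64 ± 0.281), chr4:179720399 (−3.56 ± 0.448) and chr8:115071202 (−2.95 ± 0.380) and the Tbc1d31 promoter (−2.40 ± 0.283) were also lower in cohort 2. The mean over all DMRs at P10 lay between 48.8% and 55.1% in cohort 1 pups and between 39.4% and 46% in cohort 2 pups, and the part of this shift in the single positions was not tested.

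The change within a pup differed between the cohorts at 5 positions (1.60%, beside 5.85% of all DMRs, of which 0.205% were higher and 5.65% lower), 1 higher and 4 lower in cohort 2, and the count ranged from 1 to 15 when a pup was left out. At the promoter of Tbc1d31 (chr7:97759732), a gene of centriole satellites, cohort 1 pups spanned 2.04% to 20% at P2 and 4.98% to 21.5% at P10. In cohort 2 the controls read 4.35%, 4.65%, 5.66% and 11% and then 0.837%, 1.98%, 2.67% and 2.92%, and the LBNs 1.89%, 2.43%, 2.65% and 11.9% and then 1.33%, 1.74%, 3.01% and 3.08%. The cohorts overlapped at P2 and were apart at P10, and δ methylation was lower in cohort 2 by 1.61 ± 0.283 (SE, limma adjusted p = 0.003). Near Epha2, the gene of an ephrin receptor of epithelia, cohort 1 pups went from 19.9% ± 5.22 to 18.7% ± 7.60 (SD, n = 11) and cohort 2 pups from 16.3% ± 4.01 to 28.2% ± 4.13 (n = 8), a difference in δ methylation of 0.94 ± 0.255 (SE, limma adjusted p = 0.0351). The other positions were chr11:86554428 (−1.08), chr13:69061450 (−1.21) and chr4:152395206 (−1.19).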

How the data were processed

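Buccal swabs of 19 rat pups at P2 and P10 were measured by RRBS. Per the study's methods and processing notes, the authors trimmed reads with Trim Galore 0.4.3, aligned them to rn6 with Bismark 0.16.3, kept CpGs above 10 reads, called P2 to P10 differences within each pup with methylKit, kept sites shared by at least 2 pups of a group and merged neighbours within 100 bases. The authors deposited, for each DMR, the methylation percent of each sample. No read counts are given with them, so a value from few reads weighs as much as one from many. Swabs were paired by the pup's name, and 0 columns of values were left unmapped.

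Levels were tested as log2((percent + 1)/(100 − percent + 1)), and δ methylation as log2((P10 + 1)/(P2 + 1)), with limma 3.58.1 in R 4.3.3 over all 3417 DMRs, with Benjamini-Hochberg adjustment at 0.05. The P2 to P10 fit had the pup as a block, and the LBN fits had cohort as a covariate or used 1 cohort. Pups were treated as independent. The fits were first tested on simulated data. Values were handled with Python 3.11.15, numpy 2.4.6 and pandas 2.3.3 and drawn with matplotlib 3.10.9. The alternatives were other pseudocounts (0.5, 5 and none), untransformed percentages, a filter on 0% and 100%, limits of 20% and 30%, a replicate block and each pup left out.

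The members and gene lists were chosen with earlier results of these data known. Positions were named by rule: the 6 largest mean gains and losses among those moving one way in at least 17 pups, the 5 smallest p of each LBN and cohort comparison, the 3 nearest each side of the 25% limit, the 3 lowest, the 4 largest changes of each list and the 3 closest pairs. Other named positions were chosen after their values were seen. Some positions are not reported here by name.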

Additional observations from a re-analysis of the deposited data

Results flagged for a closer look

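At 31 of the named positions, 256 groups of 4 to 6 pups were searched for a far pup by Dixon's criterion at 95%. Of these groups 16 held a pup far from the others of its group, which chance alone meets in about 1 in 20 groups. In cohort 1, LBN pup 12 stood at 27.9% at chr12:9175302 at P10, where the other LBN pups lay between 5.94% and 12.0%. Control pup 6 stood at 32.0% at Tgfbr3 at P2 (others 17.3% to 22.1%) and control pup 7 at 50.9% at Pebp4 at P10 (others 34.8% to 40.1%). LBN pup 4 stood at 9.63% at the Creld1 promoter at P10 (others 2.38% to 3.39%), and control pup 9 was low at the Slc44a2 promoter at P10 with 7.77%.

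In cohort 2, LBN pup 2 stood apart at 4 positions, with 38% at the Gdnf exon position at P10 (others 21.5% to 23.4%), 17.9% at Pebp4 at P2 (others 25% to 26.4%), 19.5% at chr7:36525586 at P2 and 11.9% at the Tbc1d31 promoter at P2. LBN pup 11 stood at 32.0% at AC133613.1 and 35.3% at chr3:79937427 at P2 and at 7.06% at chr7:36525586 at P10, and LBN pup 9 at 1.68% at Adk at P10. Control pup 11 stood at 38.6% at Gm45623 at P2, and control pup 5 at 28.0% at Dlx1 and 2.83% at chr7:36525586 at P10.

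At AC133613.1 the change from P2 to P10 was above 0 in every LBN pup of cohort 1 (mean 18.2 percentage points) and below 0 in every LBN pup of cohort 2 (mean −8.64), and this difference was not tested. The change within a pup differed between cohorts by limma at 5 positions, on the δ methylation scale by −1.08 at chr11:86554428, −1.21 at chr13:69061450, −1.19 at chr4:152395206, 0.94 near Epha2 and −1.61 at the Tbc1d31 promoter (cohort 2 minus cohort 1).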

How the results depend on the processing

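Of 523 repeats of the tests on named positions under other settings, 492 kept their direction and their side of the threshold, 31 kept the direction and lost the call, and 0 reversed. Many of these tests had no call in the main fit and so none to lose, and the pooled count is no measure of stability. The positions named for cohort 1 at P10 all lost their calls when certain single pups were left out. The count called between P2 and P10 (159) was 98 with a limit of 20%, 99 in cohort 1 alone, 81 in cohort 2 alone and 73 with the limit applied in cohort 1 and the change in cohort 2, where 55.7% were higher. A limit of 20% left 187 positions, the limit on cohort 1 chose 271 and the limit on cohort 2 chose 416, beside 313 in the main set. Counts under other limits are therefore counts in sets of unlike size, and no change in the share called is read from them. The shares of all DMRs given above do not depend on the limit. The count called in cohort 1 at P10 (36) was 17 and 58 with limits of 20% and 30%, and 62 with the limit on cohort 2. The P2 count in cohort 2 (33) was 14 on untransformed percentages, 13 and 53 with the limits of 20% and 30%, and 19 and 53 with the limit on cohort 1 and on cohort 2. The δ methylation count in cohort 2 (0) was 2 with the filter on 0% and 100%, 1 without a pseudocount and 1 on percentages. Between cohorts the P10 count (131) was 71 and 205 with the limits of 20% and 30% and 223 with the limit on cohort 2, and the δ methylation count (5) was 0 on percentages and 12 with the limit on cohort 2. The P2 to P10 fits by cohort, and the limit in one cohort with the change in the other, were chosen after seeing the data. With each pup left out, the counts ranged from 147 to 167 (P2 to P10), 0 to 80 (P10, cohort 1), 0 to 15 (δ methylation, cohort 2), 0 to 47 (P2, cohort 2), 114 to 144 (cohorts at P10) and 1 to 15 (cohorts, δ methylation), and the share higher at P10 from 64.5% to 66.8%. Only 5 pairs of a control and an LBN pup shared a number within a cohort, too few to settle whether the number pairs them. Their r was −0.404 to 0.330 at P10 (mean −0.0413, beside 0.00702 over 41 other pairs). In δ methylation it was −0.663 to 0.342 (mean −0.0235, beside 0.00264). With such a replicate block 0 positions were called at P10, in δ methylation or at P2. Without the pup as a block, 170 positions were called between P2 and P10. Few pups per cohort and an unknown read depth limit every value.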
